A study of Mus musculus with 12 samples.

Results

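The 5 genes described here encode the chemokine receptor CCR2 (Ccr2) and the mouse monocyte chemokines CCL2, CCL7, CCL8 and CCL12 (Ccl2, Ccl7, Ccl8, Ccl12). They were chosen by name, and all 5 were among the 41325 genes listed for each library. Of these, 16456 genes had enough reads to be tested, among them Ccr2, Ccl2 and Ccl7, while Ccl8 and Ccl12 had too few. Poly(A) RNA was sequenced from the livers of 12 wild-type C57BL/6J mice, with 3 groups of 4. The control group was given vehicle. NASH mice, which have a diet-induced fatty liver disease with inflammation (nonalcoholic steatohepatitis, labelled as CDAHFD-treated), received either vehicle or CDDO-Me at 10 mg/kg, by mouth for 8 weeks per the series' design text. CDDO-Me (bardoxolone methyl) is a synthetic triterpenoid that activates the transcription factor NRF2, and the series asks how it acts on the liver and names macrophage recruitment in its title. The labels do not state age, sex or housing, nor whether RNA of several mice was pooled.

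CCR2 is a receptor coupled to inhibitory G proteins and is carried above all by classical monocytes. These cells follow CCL2 and its relatives from the bone marrow into blood and from blood into inflamed tissue, where they become macrophages. In the liver CCL2 is made by macrophages, stellate cells, endothelium and injured hepatocytes, so the receptor and its ligands need not come from the same cells.

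The receptor and the ligands lie on different chromosomes. In GRCm38, the build named in the submitters' processing notes, Ccr2 spans chr9:124101950-124113557 on the plus strand. The 4 ligand genes, all on the plus strand, lie within 81.2 kb of chromosome 11: Ccl2 at chr11:82035571-82037453, Ccl7 at chr11:82045712-82047525, Ccl12 at chr11:82101845-82103400 and Ccl8 at chr11:82115185-82116799. The ligands are related in sequence, so the stretches they share were looked at. Their second exons, all coding, follow, as the reference gives them for GRCm38 (GENCODE vM21 transcripts, plus strand, 5′ to 3′). Capitals mark the 52 positions at which all 4 genes carry the same base.
Ccl2, chr11:82036483-82036600: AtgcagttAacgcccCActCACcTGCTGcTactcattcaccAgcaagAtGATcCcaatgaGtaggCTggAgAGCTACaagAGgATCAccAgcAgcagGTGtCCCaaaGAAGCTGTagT
Ccl7, chr11:82046518-82046629: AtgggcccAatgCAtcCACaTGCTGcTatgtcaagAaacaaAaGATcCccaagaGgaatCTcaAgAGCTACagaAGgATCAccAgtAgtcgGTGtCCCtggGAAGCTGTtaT
Ccl8, chr11:82116039-82116150: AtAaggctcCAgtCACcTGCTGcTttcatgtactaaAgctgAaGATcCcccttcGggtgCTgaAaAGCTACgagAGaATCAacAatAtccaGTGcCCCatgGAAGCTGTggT
Ccl12, chr11:82102611-82102728: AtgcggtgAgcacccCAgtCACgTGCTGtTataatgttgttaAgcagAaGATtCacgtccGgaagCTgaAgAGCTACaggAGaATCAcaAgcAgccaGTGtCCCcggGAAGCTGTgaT
The run TGCTG near the start of the exon falls where the paired cysteines of the CC chemokines are encoded. Over the aligned coding sequence, pairs of the 4 genes had 64.2% to 70.5% of bases in common, and the longest stretch shared by any pair was 23 bases, between Ccl2 and Ccl7. None of the 4 shared a stretch of 40 bases with the annotated transcripts of any other gene, while 167 of the 6754 such stretches of Ccr2 (2.47%) also occur elsewhere.

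Read support differed between the members. Of all gene reads in the 12 libraries, 99.8% of the 5406 Ccr2 reads were counted by the authors as unique, as were 100% of those on Ccl7 (386), Ccl12 (20) and Ccl8 (12). For Ccl2 the unique share was 40.5% (878 of 2169 reads), and it was near that value in the NASH vehicle (40.8%) and CDDO-Me (40.3%) livers. The shortfall lay in reads that do not cross an exon-exon junction. Of 703 Ccl2 reads across an exon-exon junction, 702 were unique (99.9%), against 176 of 1323 other exon reads (13.3%). In every library the unique gene reads of Ccl2 equalled its unique exon reads, so none of its 143 intron reads was counted as unique. The gene lies on the plus strand inside the 10273-base intron of Gm17268, an annotated minus-strand gene at chr11:82028224-82038562, whose exons of 31 and 35 bases do not touch Ccl2 and which drew 3 reads in all 12 libraries. Whether this overlap sets the unique share was not tested. With unique reads alone, the Ccl2 log2 fold change was 4.82 ± 0.56 (SE) in NASH vehicle against control and 0.21 ± 0.40 in CDDO-Me against NASH vehicle, close to the values from all reads given with the comparisons.

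**Figure D1:**
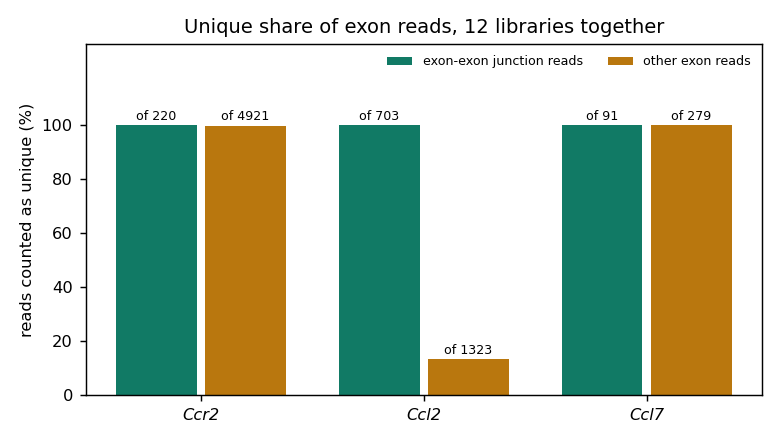
Share of exon reads counted as unique (vertical axis, percent) for Ccr2, Ccl2 and Ccl7, split into reads across an exon-exon junction (green) and all other exon reads (orange), with the 12 libraries added up and the number of reads above each bar. Among these exon reads Ccl2 stands apart in those that cross no junction, of which 13.3% were unique, and intron reads are not shown.

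The libraries held 28161057 to 33852338 gene reads. The liver label was borne out by 7 listed hepatocyte genes, which summed to between 35584 and 99938 CPM in every library, and another hepatocyte gene of that list is not analysed here. CPM here are reads of a gene scaled to a common library size after trimmed-mean (TMM) normalization. Scaling mattered for NASH against control: without TMM the median log2 fold change over all tested genes was 0.62, and with it -0.01, so changes are given relative to the typical gene. Control 3 and CDDO-Me 4 stood apart in 5 smooth muscle genes, which summed to 402 and 147 CPM against at most 48.9 CPM in the other 10 libraries. Without these libraries the log2 fold changes of CDDO-Me against NASH vehicle were -0.71 for Ccr2, 0.24 for Ccl2 and -1.13 for Ccl7 (adjusted p = 0.0679, 0.388 and 0.115 by edgeR). In bulk liver, fewer cells of a type and less RNA per cell cannot be told apart.

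RNA for the receptor was scarce in control livers and abundant in NASH livers. Ccr2 stood at 1.31, 0.600, 1.33 and 0.537 CPM in control 1 to 4 (12 to 36 reads) and at 18.4, 26.2, 19.5 and 22.01 CPM in NASH vehicle 1 to 4 (617 to 953 reads). In CDDO-Me 1 to 4 it stood at 19.4, 9.62, 10.2 and 23.9 CPM. The control and NASH ranges were far apart, whereas CDDO-Me 1 and 4 lay inside the NASH vehicle range and CDDO-Me 2 and 3 lay below it. The group means were 0.944 ± 0.434, 21.5 ± 3.46 and 15.8 ± 7.02 CPM (SD, n = 4 each), and the CDDO-Me livers varied more (44.5% of their mean) than the NASH vehicle livers (16.0%).

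The main ligand, Ccl2, behaved more evenly. It stood at 0.384, 0.185, 0.370 and 0.179 CPM in control 1 to 4, from 4 to 10 reads each. The values were 7.45, 7.36, 8.32 and 5.57 CPM in NASH vehicle 1 to 4 and 7.95, 9.48, 7.99 and 8.20 CPM in CDDO-Me 1 to 4. All 8 NASH livers lay far above the controls, and 3 of the 4 CDDO-Me livers lay inside the NASH vehicle range with CDDO-Me 2 above it. The means were 0.279 ± 0.113, 7.18 ± 1.16 and 8.41 ± 0.722 CPM (SD, n = 4 each).

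Ccl7, a ligand of CCR2 and of further CC receptors, lay at the limit of detection in controls, with 4, 0, 2 and 0 reads in control 1 to 4. In NASH vehicle 1 to 4 it stood at 2.03, 1.68, 1.94 and 1.22 CPM (46 to 79 reads). In CDDO-Me 1 to 4 it stood at 1.17, 0.772, 0.365 and 1.43 CPM (10 to 50 reads). NASH vehicle and CDDO-Me overlapped only through CDDO-Me 4, which lay above NASH vehicle 4, and the lowest CDDO-Me values were again those of livers 2 and 3. The means were 0.0569 ± 0.0733, 1.72 ± 0.363 and 0.935 ± 0.468 CPM (SD, n = 4 each).

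The remaining ligands were close to absent. Ccl8 drew 4 reads in control 3, 2 and 4 reads in NASH vehicle 3 and 4, 2 reads in CDDO-Me 4 and 0 reads in the other 8 libraries. Ccl12 drew 0 reads in all 4 controls, 2, 4, 4 and 8 reads in NASH vehicle 1 to 4, and 0, 0, 0 and 2 reads in CDDO-Me 1 to 4. The 4 reads of NASH vehicle 2 all lay in introns, so its TPM for Ccl12 is 0. Every one of these counts is even, as were 64.9% to 67.6% of the counts from 1 to 10 in each library. Whether a read pair counts as 2 is not stated, so a count of 0 over a group was given a limit of 6 reads, or 3 pairs, which covers counting error only.

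**Figure D2:**
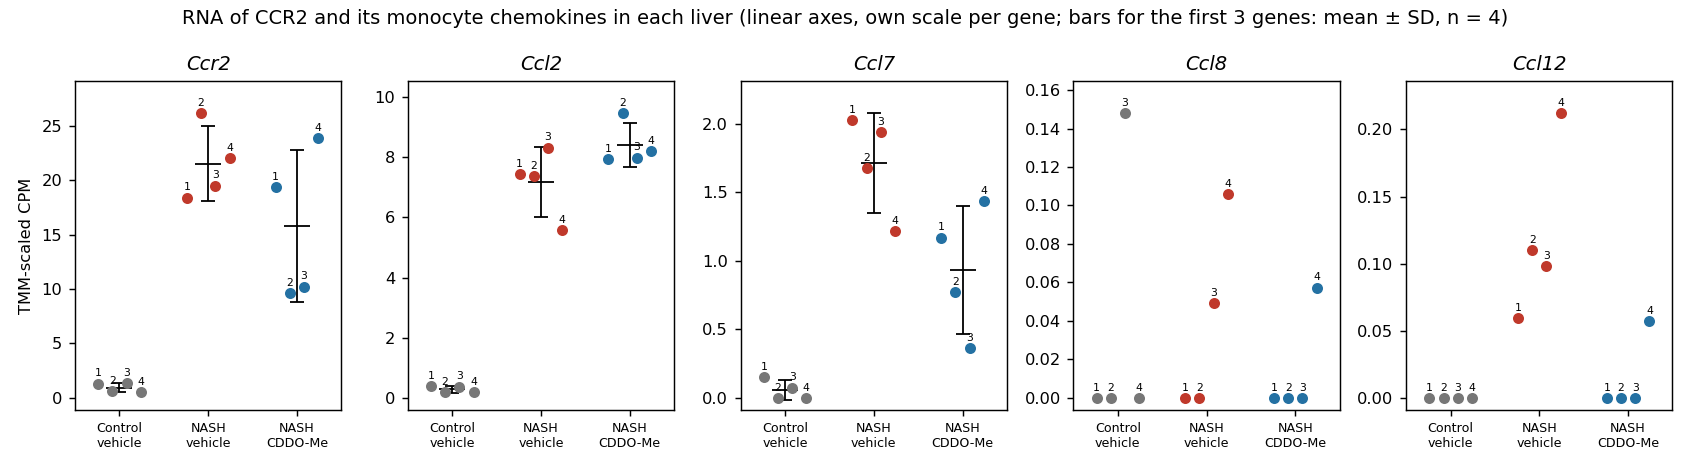
CPM of each member (vertical axes, linear, with their own scale per gene) in the 12 livers, with the replicate number beside each point and black bars for the mean and SD of 4 livers for the first 3 genes. Ccr2, Ccl2 and Ccl7 are far higher in both NASH groups than in controls, CDDO-Me 2 and 3 are low for Ccr2 and Ccl7 but not for Ccl2, and Ccl8 and Ccl12 rest on 0 to 8 reads.

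Levels of different genes can be set side by side only per length, for which the authors' TPM were used. In NASH vehicle livers the order was Ccl2 (18.3 ± 3.37 TPM), Ccr2 (9.56 ± 1.55 TPM), Ccl7 (6.47 ± 1.42 TPM), Ccl12 (0.554 ± 0.531 TPM) and Ccl8 (0.249 ± 0.314 TPM; SD, n = 4 each). Ccl2 lay above Ccr2 in all 4 livers (at least 14.9 against at most 11.1 TPM), the ranges of Ccr2 and Ccl7 overlapped, and Ccl7 lay above Ccl12. Under CDDO-Me the first 3 kept that order, with Ccl2 at 18.8 ± 2.12, Ccr2 at 6.22 ± 3.52 and Ccl7 at 3.17 ± 1.93 TPM (SD, n = 4 each). In controls no neighbours in the order were separated, and every member was at 0.629 TPM or below. Ccr2 had more reads than Ccl2 but a lower TPM because its annotated exons span 6760 bases against 1138.

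Set against vehicle-treated controls, the receptor and both measurable ligands were higher in NASH vehicle livers by similar factors. The log2 fold change was 4.48 ± 0.38 for Ccr2 (22.3-fold, 95% interval 12.6 to 39.4), 4.63 ± 0.25 for Ccl2 (24.8-fold, 17.1 to 36.1) and 4.73 ± 0.68 for Ccl7 (26.6-fold, 9.64 to 73.3; SE). Adjusted p-values by edgeR's quasi-likelihood test were 1.17e-06, 1.95e-08 and 5.06e-05, and all 4 NASH livers lay above all 4 controls for each gene. So 3 of the 3 tested members were higher, where 29.6% of all tested genes were called higher, 30% lower and 59.7% either way. Groups without overlap were found upwards for 27% of all tested genes and either way for 54.4%. Ccr2 passed the filter on low counts in control livers too, but Ccl2 and Ccl7 passed it only through the NASH groups, so their passing and their rise are not separate facts. Their median log2 fold change was 4.63, against -0.01 over all tested genes.

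The scarce ligands gave limits rather than fold changes. Ccl12 stood at 0.121 CPM over the 4 NASH vehicle libraries together, at least 1.96-fold higher than the 0.0618 CPM that 6 reads over the 4 controls would give. All 4 NASH vehicle livers lay above all 4 controls (exact permutation test, two-sided, p = 0.0286, the smallest that 4 against 4 allows, and 0.0857 after Benjamini-Hochberg adjustment over 6 such tests, a test chosen after the counts were seen). Without a filter on low counts, edgeR's adjusted p for Ccl12 was 0.0265. For Ccl8 no difference was detectable at this depth (0.0370 against 0.0388 CPM, exact permutation p = 1).

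No tested member differed between CDDO-Me and NASH vehicle livers beyond the spread between livers. Against NASH vehicle, the log2 fold change was -0.44 ± 0.30 for Ccr2 (95% interval -1.10 to 0.21, adjusted p = 0.351 by edgeR), 0.23 ± 0.19 for Ccl2 (-0.18 to 0.63, 0.457) and -0.86 ± 0.50 for Ccl7 (-1.93 to 0.21, 0.264; SE). Hence 0 of the 3 tested members were called by edgeR, where 9.39% of all tested genes were called higher, 7.24% lower and 16.6% either way, and 21.6% had no overlap (11.4% upwards, 10.2% downwards), and all 3 members overlapped between the groups. At an unadjusted p under 0.05 edgeR also gave 0, and DESeq2 gave 0 after adjustment and 1, Ccl7, before it. Before adjustment limma gave 2, Ccr2 and Ccl7, on log2(TPM + 1) and 1, Ccl7, on log2(TPM + 0.1). The intervals leave room for a fall to 0.467 of the NASH level for Ccr2 and to 0.263 for Ccl7, but for Ccl2 only to 0.883.

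The call for Ccl7 depended on the scale. On log2(TPM + 1), limma called Ccl7 lower under CDDO-Me (-0.95, adjusted p = 0.0339), and it was the 1 member called there, while on log2(TPM + 0.1) no member was called. Leaving out 1 of the 8 libraries at a time kept Ccr2 between -0.71 and -0.27, Ccl2 between 0.12 and 0.31 and Ccl7 between -1.14 and -0.60, with no member called in any of the 8 fits. In terms of group means, 72.1% of the NASH rise in Ccr2, 118% of that in Ccl2 and 53% of that in Ccl7 was present in the CDDO-Me livers.

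Among the near-absent ligands, Ccl12 had 18 reads over the NASH vehicle livers and 2 over the CDDO-Me livers. In CPM all 4 CDDO-Me livers lay below all 4 NASH vehicle livers, but NASH vehicle 1 and CDDO-Me 4 had 2 reads each. They were separated only by the TMM scaling (0.0596 against 0.0574 CPM, factors 1.11 and 1.20), since NASH vehicle 1 had the larger library. The exact permutation p was 0.0286, again the smallest possible, and 0.0857 after adjustment over the 6 tests, and edgeR without a filter on low counts gave an adjusted p of 0.263. Ccl8 had 6 and 2 reads, both within the limit of 6 reads (exact permutation p = 0.714).

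The CDDO-Me livers remained far from controls. The log2 fold change against control was 4.03 ± 0.37 for Ccr2, 4.86 ± 0.25 for Ccl2 and 3.87 ± 0.69 for Ccl7 (SE), with adjusted p-values of 4.06e-06, 2.05e-08 and 0.000416 by edgeR. These 3 of 3 tested members were called higher and did not overlap with controls, where 26.2% of all tested genes were called higher, 23.6% lower and 49.8% either way. Groups without overlap were found upwards for 22.6%, downwards for 21.1% and either way for 43.7%. This comparison shares the control livers with the NASH vehicle comparison and the CDDO-Me livers with the treatment comparison.

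**Figure D3:**
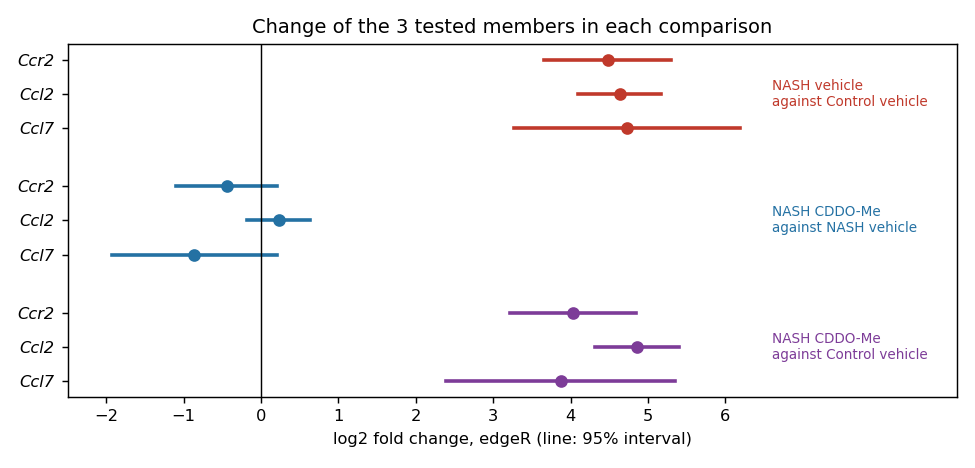
Log2 fold change (horizontal axis, dot) with its 95% interval (line) for the 3 tested members in the 3 comparisons, from edgeR. Against control all 6 intervals lie above 0, and against NASH vehicle all 3 intervals include 0.

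Macrophages are the cells that recruited monocytes become. All 12 macrophage genes rose in NASH (median log2 fold change 3.43), and their summed level went from 141 to 226 CPM in controls to 1614 to 3009 CPM in NASH vehicle. Over all tested genes 29.6% were called higher in NASH and 7.24% lower under CDDO-Me. Under CDDO-Me 9 of the 12 fell (median -1.16 against -0.01 for all tested genes), among them Fcgr1 (-1.82 ± 0.17), a high-affinity antibody receptor, and Adgre1 (-1.62 ± 0.15, SE), which encodes F4/80, with adjusted p-values of 1.6e-05 and 1.2e-05 by edgeR. The sum then lay between 897 and 1574 CPM, so every CDDO-Me liver was below every NASH vehicle liver. None of the 12 was at 0 reads in any group. How far the number of macrophages sets the members' values was not tested.

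Each member was therefore also set against macrophage RNA of the same liver, as its log2 CPM minus the mean log2 CPM of the 12 macrophage genes. On this scale Ccr2 was higher in NASH than in control livers by 1.04, from -3.29 ± 0.447 to -2.26 ± 0.202 (SD, n = 4 each). All 4 NASH vehicle livers lay above all 4 controls, which held for 0.839% of all tested genes, while 89.3% of them lay wholly below. The exact permutation p was 0.0286, the smallest possible, and 0.0536 after adjustment over 15 such tests, so the difference failed the correction. Ccl2 was higher by 0.96 with overlap (p = 0.0571, 0.0857 adjusted, exact permutation test).

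Between the NASH groups the same scale was compared. Ccl2 stood at -3.37, -3.91, -3.61 and -4.44 log2 units against macrophage RNA in NASH vehicle 1 to 4 and at -2.62, -2.15, -2.44 and -2.73 in CDDO-Me 1 to 4. The groups did not overlap, a difference of 1.35 with an exact permutation p of 0.0286 (0.0536 adjusted), but 73.3% of all tested genes showed the same separation, so Ccl2 was not unusual in this. Ccr2 was 0.57 higher (p = 0.143, 0.195 adjusted) and Ccl7 0.16 higher (p = 0.743, 0.743 adjusted, exact permutation tests), both with overlap. Against controls, which these livers share with the earlier comparison, CDDO-Me livers stood higher by 1.60 for Ccr2 and 2.31 for Ccl2 without overlap (exact permutation p = 0.0286, 0.0536 adjusted, for each), where 1.61% of all tested genes lay wholly above and 81% wholly below. For Ccl8 and Ccl12, and for Ccl7 against controls, this scale is set in part by the prior count added to 0 reads and is not reported.

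**Figure D4:**
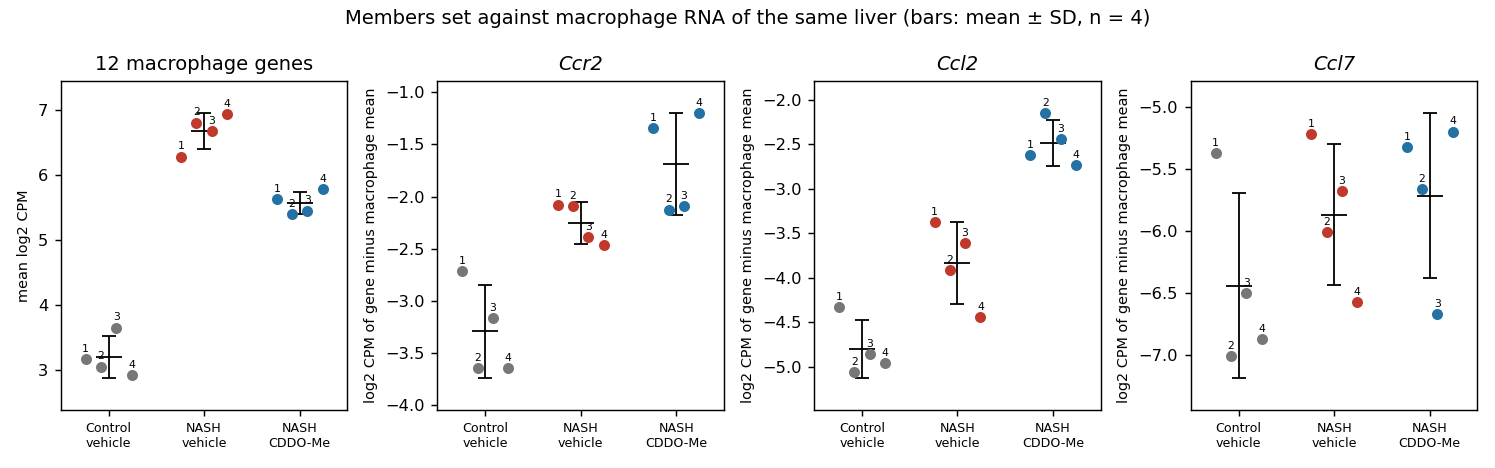
Left, mean log2 CPM of 12 macrophage genes, and next to it Ccr2, Ccl2 and Ccl7 as log2 CPM minus that mean (vertical axes), for each of the 12 livers with its replicate number and black bars for mean and SD of 4. Macrophage RNA is lower in every CDDO-Me liver than in every NASH vehicle liver, and Ccl2 relative to it is higher in every CDDO-Me liver. Ccl7 had 0 reads in control 2 and 4, where its point is set by the prior count.

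Ligand and receptor were compared with each other in the same way. The log2 ratio of Ccl2 to Ccr2 (in CPM) was -1.51 ± 0.175 in controls, -1.58 ± 0.374 in NASH vehicle and -0.80 ± 0.725 in CDDO-Me livers (SD, n = 4 each). The difference of 0.78 between the NASH groups did not hold up against their spread (exact permutation p = 0.143, 0.214 adjusted over 12 tests), and it was carried by CDDO-Me 2 and 3, where Ccr2 was low. The log2 ratio of Ccl7 to Ccr2 was 0.41 lower under CDDO-Me (exact permutation p = 0.229, 0.305 adjusted). Against controls the Ccl7 ratios are not given, since with 0 to 4 control reads their sign depended on the prior count.

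Classical monocytes, the cells that carry CCR2, have RNA of their own that can be followed. Of 10 such genes 9 rose in NASH (median log2 fold change 3.32), where 29.6% of all tested genes were called higher. Among them were Ly6c2 (3.85 ± 0.36, adjusted p = 1.2e-06), the surface antigen that defines these cells in mice, and Vcan (3.74 ± 0.37, 2.3e-06), which encodes versican (SE, edgeR). With 0.166 and 0.264 CPM in controls, Ly6c2 and Vcan passed the filter on low counts only through the NASH groups. So did Clec4e, Ms4a4c and most others of the list. For such genes passing and rising are not separate facts, and the list's count and median rest largely on them. Clec4e, a receptor for damaged cells and mycobacterial lipids, had 0 reads in controls and was at least 38.9-fold higher in NASH vehicle at the limit of 6 reads, and the list's median is the same with Clec4e at that bound. Under CDDO-Me 3 of the 10 fell: Ms4a4c (-1.46 ± 0.32, adjusted p = 0.0074), Vcan (-1.15 ± 0.31, 0.023) and Ly6c2 (-0.90 ± 0.29, 0.049). Among all tested genes edgeR called 7.24% lower. By limma on log2(TPM + 1), 5 of the 10 were lower. Ms4a4c was called in each of 8 fits without 1 library. The call of Vcan was lost without NASH vehicle 3 or 4 or CDDO-Me 2 or 3 (adjusted p up to 0.0773), and that of Ly6c2 without any library other than CDDO-Me 4 (up to 0.152).

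The summed level of these 10 genes was set beside Ccr2 in each CDDO-Me liver. It was 27.3, 17.9, 18.1 and 26.1 CPM in CDDO-Me 1 to 4, against 38.9 to 48.1 CPM in NASH vehicle and 4.56 to 16.1 CPM in controls. Livers 2 and 3, which were low for Ccr2 and Ccl7, were also the lower pair here, while Ccl2 was highest in liver 2. The same pair was lower in the macrophage sum (897 and 1019 against 1212 and 1574 CPM). It was also lower for T and NK cell, dendritic, stellate, cholangiocyte and smooth muscle genes, and higher for hepatocyte, Kupffer cell and endothelial genes. For Kupffer cell genes this held for the sum but not for the mean log2 CPM (2.756, 3.549, 2.796 and 2.797 in CDDO-Me 1 to 4). The nonclassical monocyte and neutrophil sums did not split that way. The split was therefore not particular to classical monocyte genes. With 4 livers this is a description without a test. Unlike Ccr2, the sum in all 4 CDDO-Me livers lay below all 4 NASH vehicle livers. Plac8 made up much of this sum. It stood at 24.3 ± 3.16 CPM in NASH vehicle and 11.4 ± 3.03 CPM under CDDO-Me (SD, n = 4 each). The list's mean log2 CPM was 0.525, 0.199, 0.046 and 0.841 in CDDO-Me 1 to 4 and 0.934 to 1.39 in NASH vehicle.

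Nonclassical monocytes, which descend from classical ones and lose CCR2, were followed with 10 other genes. In NASH 7 rose (median 3.10), with the lowest p-values for Itgal (3.51 ± 0.16, adjusted p = 4.8e-09), an integrin chain, and Fcgr4 (3.13 ± 0.21, 1e-07), an antibody receptor (SE, edgeR). Under CDDO-Me 5 fell (median -0.71), with the lowest p-values for Fcgr4 (-1.38 ± 0.19, 0.0004) and Pou2f2 (-1.23 ± 0.23, 0.0032), a transcription factor. The shares over all tested genes were 29.6% higher in NASH and 7.24% lower under CDDO-Me. Some of the 7 passed the filter on low counts only through the NASH groups, so for them passing and rising are not separate facts. Fcgr4 and Pou2f2 kept their calls in each of 8 fits without 1 library. Of the other calls, the least stable was lost in 7 of these fits (adjusted p up to 0.089) and another in 3 (up to 0.0556).

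The other CC chemokines serve further receptors. Of 17 listed, 13 were tested, and in NASH 6 were higher and 3 lower (median log2 fold change 0.76, the value of Ccl20, and 4.17 without control 3 and CDDO-Me 4, when 8 were higher and 2 lower). The higher ones included Ccl3 (5.21 ± 0.57, adjusted p = 4.9e-06), a ligand of CCR1, Ccl22 (5.28 ± 0.54, 2.8e-06), a ligand of CCR4, and Ccl6 (4.25 ± 0.29, 2.8e-07), a myeloid chemokine (SE, edgeR). Ccl4, the close relative of Ccl3, had 1 read in all controls together and 242 in NASH vehicle. Ccl3, Ccl4 and Ccl22 (0.0569, 0.0115 and 0.0824 CPM in controls) passed the filter only through the NASH groups. So did the others of the 6 higher ones except Ccl6. For them passing and rising are not separate facts. Of all tested genes, 29.6% were called higher and 30% lower. The lower ones were Ccl25, Ccl27a and Ccl28, chemokines of epithelia (-0.74 ± 0.22, -0.60 ± 0.12 and -2.03 ± 0.59). None of these 3 was called lower without TMM scaling, and without control 3 the value of Ccl28 was -1.03 (adjusted p = 0.0568).

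Under CDDO-Me 4 of the 13 fell and 0 were called higher (median -0.44), where 7.24% of all tested genes were called lower and 9.39% higher. Without control 3 and CDDO-Me 4 the list had 6 lower and 1 higher (median -1.01), and limma on log2(TPM + 1) also gave 6 lower and 1 higher. Ccl3 went from 2.40 ± 0.304 to 0.573 ± 0.108 CPM and Ccl4 from 1.65 ± 0.394 to 0.332 ± 0.0773 CPM (SD, n = 4 each), log2 fold changes of -2.05 ± 0.43 and -2.29 ± 0.40 (SE) with adjusted p-values of 0.0059 and 0.0018 by edgeR. For both genes every CDDO-Me liver lay below every NASH vehicle liver, as for 10.2% of all tested genes. Both calls held in each of 8 fits without 1 library. Ccl4 (0.258 to 0.426 CPM under CDDO-Me) passed the filter only with the NASH vehicle livers, so its passing and its fall are not separate facts. Ccl6 (-0.80 ± 0.24, 0.041) and Ccl9 (-0.44 ± 0.11, 0.016) also fell. The call of Ccl6 was lost without NASH vehicle 2, 3 or 4 or CDDO-Me 1, 2 or 3 (adjusted p up to 0.13), and that of Ccl9 without NASH vehicle 2 or 4 (up to 0.0581). Whether Ccl3 and Ccl2 changed by different amounts was not tested.

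**Figure D5:**
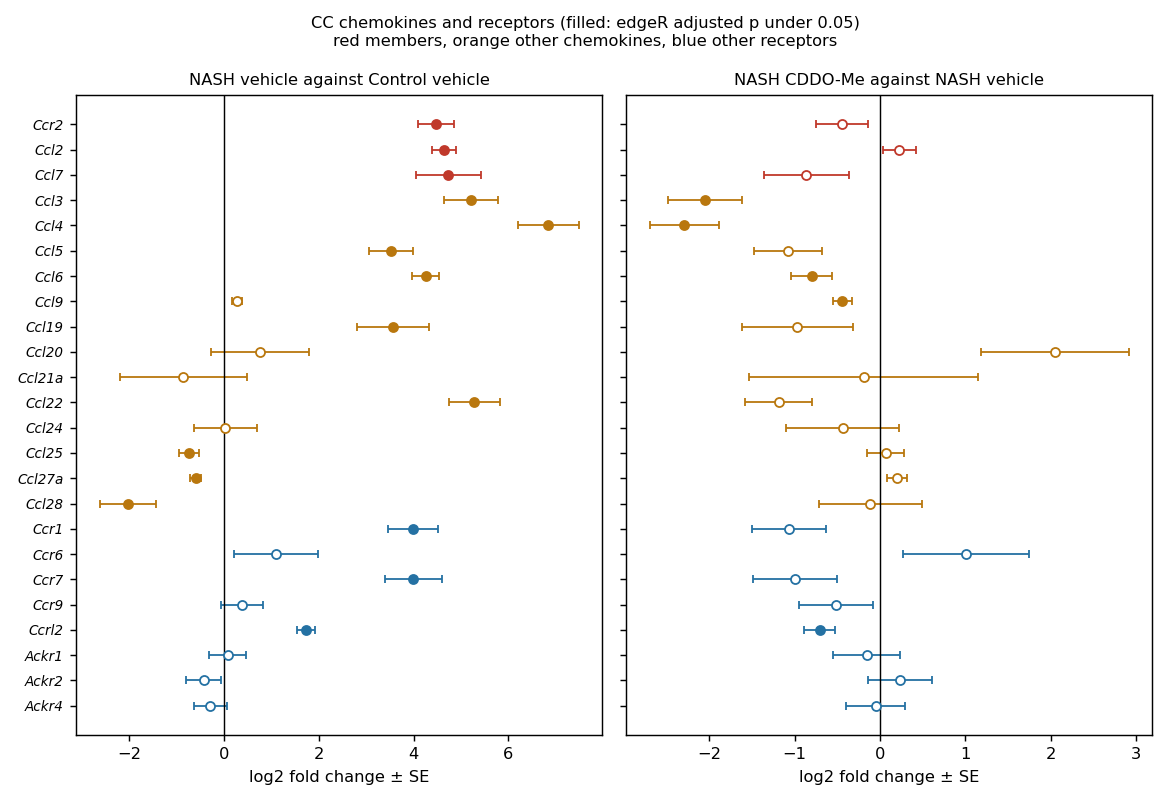
Log2 fold change with SE (horizontal axes) for tested CC chemokines and receptors in NASH vehicle against control (left) and CDDO-Me against NASH vehicle (right), with filled circles for an edgeR adjusted p under 0.05, members in red, other chemokines in orange and other receptors in blue. The 3 members are filled on the left and open on the right, where Ccl3, Ccl4, Ccl6, Ccl9 and Ccrl2 are filled.

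Of the other chemokine receptors, 9 of 13 were tested, and 4 were higher in NASH (median 1.10), where 29.6% of all tested genes were called higher. Among these 4 were Ccr1 (3.98 ± 0.53, adjusted p = 2.6e-05), Ccr7 (3.99 ± 0.60, 7.8e-05) and Ccrl2 (1.73 ± 0.19, 5e-06; SE, edgeR). Ccr1 and Ccr7 (0.223 and 0.193 CPM in controls) passed the filter only through the NASH groups, so their passing and their rise are not separate facts. Ccr1 encodes a receptor of myeloid cells, Ccr7 guides cells to lymph nodes, and Ccrl2 binds chemerin without signalling. Under CDDO-Me 2 of the 9 fell, among them Ccrl2 (-0.70 ± 0.18, adjusted p = 0.017 by edgeR), against 5 without control 3 and CDDO-Me 4 and 4 by limma on log2(TPM + 1). The share called lower by edgeR over all tested genes was 7.24%. The Ccrl2 call was lost without NASH vehicle 2 or 4 or CDDO-Me 3 (adjusted p up to 0.0664).

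Upstream of Ccr2 on chromosome 9, Ccr1 (chr9:123962124-123968692, minus strand) stood at -1.07 ± 0.43 under CDDO-Me (adjusted p = 0.11), and Ccr3, between Ccr1 and Ccr2, had 29 reads in all libraries.

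Around the ligand genes, 2 long noncoding genes upstream of Ccl2 had reads. Gm31522 (chr11:81983119-82019967, minus strand) rose in NASH from 3.98 ± 1.55 to 15.9 ± 7.62 CPM (SD, n = 4 each; log2 difference 2.00 ± 0.36, SE, adjusted p = 0.00049 by edgeR), and stood at 22.9 ± 3.62 CPM under CDDO-Me (0.53 ± 0.33, adjusted p = 0.32). Gm11419, within it on the opposite strand, stood at 1.52 ± 0.71 in NASH (adjusted p = 0.082). Since no source used here states how strand was treated, reads of these overlapping genes cannot be told apart. Between Ccl7 and Ccl12, Ccl11 drew 35 reads in all libraries, and Ccl1, beyond Ccl8, drew 15, so within this stretch reads were concentrated on Ccl2 and Ccl7.

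The start sites of the near-absent ligands carry a motif. Of the 5 members, 3 matched RefSeq promoter windows (GRCm38.p6), and for Ccl8 and Ccl12 the 60 bases before the start are shown, with the motif TATAAA in capitals, because these are the ligands with almost no RNA here.
Ccl8, chr11:82115125-82115184, plus strand: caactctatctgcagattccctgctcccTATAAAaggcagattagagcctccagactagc
Ccl12, chr11:82101785-82101844, plus strand: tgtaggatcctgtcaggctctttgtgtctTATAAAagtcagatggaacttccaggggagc
The motif begins 32 bases before the start of Ccl8 and 31 bases before that of Ccl12, and 13.6% of 32851 such windows of 300 bases hold it on either strand. The further motifs searched on both strands were the letters GGG and CC with any 5 bases between them (for NF-kB, in 50.8% of windows), TGANTCA (for AP-1, in 7.81%) and GAGGAA (for PU.1, in 28.3%). Only GAGGAA was found, once each in the windows of Ccl8 and Ccl12, and the window of Ccr2 held none of the 4. A match is a description of letters, not a bound site.

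Downstream of CCR2, 15 genes of its signal path were followed. In NASH 13 were higher and 2 lower (median log2 fold change 1.34), where 29.6% of all tested genes were called higher and 30% lower. Some of the 13 passed the filter on low counts only through the NASH groups, so for them passing and rising are not separate facts. Pik3r5 (4.61 ± 0.41, adjusted p = 1.6e-06), a subunit of the phosphoinositide kinase driven by G proteins, Vav1 (3.69 ± 0.26, 1.5e-07), a signalling protein of blood cells, and Arrb2 (1.53 ± 0.12, 3.7e-07), an arrestin that switches receptors off, were among the higher ones (SE, edgeR). The lower ones were Gnai3 (-0.36 ± 0.09, 0.005), a G protein subunit, and Nup85 (-0.23 ± 0.08, 0.032), a nuclear pore protein that also binds CCR2, and without TMM scaling all 15 were called higher. The Nup85 call was also lost without control 2 or 4 or NASH vehicle 1, 2 or 4 (adjusted p up to 0.0949).

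Under CDDO-Me 6 of these 15 fell and 0 rose (median -0.44), against 9 lower and 1 higher without control 3 and CDDO-Me 4 and 10 lower by limma on log2(TPM + 1). By edgeR 7.24% of all tested genes were lower and 9.39% higher. Vav1 (-1.14 ± 0.22, adjusted p = 0.004), Arrb2 (-0.60 ± 0.12, 0.0043) and Grk2 (-0.44 ± 0.08, 0.0033), the kinase that marks receptors for arrestins, kept their calls in each of 8 fits without 1 library (SE, edgeR). The calls of the others among the 6 were each lost in 5 or 6 of these 8 fits (adjusted p up to 0.143). The proteins of this path serve many receptors besides CCR2.

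Signals that induce or restrain the ligand genes rose in NASH as well. Of 13 tested, 11 were higher and 0 lower (median 0.70), where 29.6% of all tested genes were called higher and 30% lower. Among the 11 were Tnf (5.17 ± 0.59, adjusted p = 7.5e-06), Il1b (1.57 ± 0.28, 0.00028), Nfkb1 (0.83 ± 0.08, 2e-06) and Zc3h12a (1.60 ± 0.16, 2.7e-06), which encodes a ribonuclease that degrades inflammatory mRNAs (SE, edgeR). Tnf, at 0.0608 CPM in controls, passed the filter only through the NASH groups, so its passing and its rise are not separate facts. Under CDDO-Me 3 were called lower, where 7.24% of all tested genes were: Nfkb1 (-0.56 ± 0.08, 0.00047), Rela (-0.29 ± 0.07, 0.011) and Il1b (-1.01 ± 0.27, 0.021). Without control 3 and CDDO-Me 4 the list had 6 lower and 1 higher, and limma on log2(TPM + 1) gave 5 lower. The Il1b call was lost without NASH vehicle 2 or 3 or CDDO-Me 2 or 3 (adjusted p up to 0.0708). Tnf stood at -0.95 ± 0.42 (0.14).

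The genes whose profile over the 12 livers lay nearest to each member were also listed, by the root mean square difference of centred log2 CPM over 12735 or 12736 genes. For Ccr2 they were Nckap1l (0.295), Myof (0.328), Cd84 (0.343), Mcoln2 (0.369), Cybb (0.392) and Cyth4 (0.397), against a median of 2.10 over all genes compared. For Ccl7 they were Lpcat2 (0.447), Apbb1ip (0.447), Mcoln2 (0.460), Ptprc (0.467), Il2rg (0.471) and Evi2b (0.474), against a median of 1.87. For Ccl2 they were Stap1 (0.380), Meg3 (0.403), Prc1 (0.429), Aqp7 (0.430), Spink1 (0.431) and Sgo2a (0.436), against a median of 2.20. The nearest gene of Ccr2, Nckap1l, an actin regulator of blood cells, went from 2.23 to 54.9 and 29.1 CPM over control, NASH vehicle and CDDO-Me, and Meg3, a noncoding RNA, from 3.16 to 80.9 and 87.9 CPM. Mcoln2 was the 1 gene listed for both Ccr2 and Ccl7, and no gene was listed for both Ccl2 and another member.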

How the data were processed

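Each library came as 1 deposited table of 41325 genes. The authors' read counts per gene were used as deposited (total gene reads, and unique, exon, junction and intron reads), and the authors' TPM served only to compare levels between genes and as alternatives. Per the submitters' processing notes the genome build is GRCm38. For the aligner, the counting tool, the strand and the counting of pairs: not given in the sources used here. Nothing says that the 4 samples of a group come from separate cages or days, and p-values measure only the spread between these samples.

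The members and gene lists were chosen with earlier results of these data known. Named besides the 5 members are up to 4 genes per list with the lowest p or moving against their list, neighbours within 150 kb, and the 6 nearest profiles. Clec4e, Plac8, Ccl20 and Tnf under CDDO-Me were named after their values were seen. In edgeR 4.0.16 (R 4.3.3), genes were filtered by filterByExpr (minimum count 10, minimum total 15), scaled by TMM and fitted with 1 mean per group over 12 libraries, by robust quasi-likelihood, two-sided, with Benjamini-Hochberg adjustment over 16456 genes at 0.05. The SE is the absolute log2 fold change over the square root of the F statistic. CPM are TMM-scaled, and log2 CPM use a prior count of 2. Single values were compared by exact permutation tests. Alternatives used DESeq2 1.42.0 and limma 3.58.1. Sequences were aligned with Biopython 1.88. Replicate numbers did not pair libraries. Some genes of the lists are counted but not reported here by name.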

Additional observations from a re-analysis of the deposited data

Results flagged for a closer look

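In 23 sets of 4 livers, the highest and lowest value were compared with the rest by Dixon's gap test at its 95% critical value. Chance passes this in about 1 of 20 sets, a rate that does not hold for sets with 0 reads in 3 livers. Of the 23 sets, 4 passed. The sets were the CPM of each member in each group, except Ccl12 in controls with 0 reads throughout, and Ccr2, Ccl2 and Ccl7 relative to macrophage RNA in each group. Ccl2 stood at 9.48 CPM in CDDO-Me 2, against 7.95 to 8.20 CPM in the other CDDO-Me livers. Ccl8 stood at 0.148 CPM in control 3, and both Ccl8 and Ccl12 at 0.0574 CPM in CDDO-Me 4, with 0 reads in the other 3 livers of the group in each case. These last 3 rest on 4, 2 and 2 reads. With 0 reads in 3 livers, any nonzero value in the other liver passes the test, so these 3 passes carry no information. The Ccl2 set is left, about what a rate of 1 in 20 gives over 23 sets.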

How the results depend on the processing

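The 3 members rose in NASH and stayed high under CDDO-Me, with an adjusted p under 0.05, in every alternative run. Against NASH vehicle, limma on log2(TPM + 1) called 1 member lower, Ccl7 (-0.95, adjusted p = 0.0339), and no other alternative called a member. With replicate number as a block the log2 fold changes were 4.50, -0.52 and 3.98 for Ccr2, 4.64, 0.25 and 4.89 for Ccl2 and 4.84, -0.93 and 3.90 for Ccl7 in the 3 comparisons, and no member's call changed. The numbers gave no pairing: deviations of same-numbered libraries correlated at -0.223 to 0.187, above 0.1 in 2 of 12 cases, and 1 of 12 libraries correlated best with its own number.

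Counts over all genes moved with the scaling. For library totals without TMM, log2(TPM + 1) and log2(TPM + 0.1), in that order, NASH against control gave 9908, 10905 and 11069 genes higher (4874 with TMM) and 1326, 873 and 872 lower (4945). CDDO-Me against control gave 8678, 8845 and 9243 higher (4317) and 1125, 812 and 817 lower (3881). CDDO-Me against NASH vehicle gave 926, 779 and 719 higher (1545), while 2607 and 1968 were lower on the TPM scales (1191), 1848 by DESeq2 and 2004 without control 3 and CDDO-Me 4, which also gave 2211 higher. Higher calls were 49.6%, 56.5% and 52.7% of all calls in NASH against control, CDDO-Me against NASH vehicle and CDDO-Me against control, and 88.2%, 36.8% and 88.5% without TMM.

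Leaving out 1 library gave 930 to 1972 genes higher and 617 to 1453 lower for CDDO-Me against NASH vehicle. Relative to macrophage RNA, Ccl2 then differed by 0.81 to 1.17 between NASH vehicle and control and by 1.15 to 1.501 between CDDO-Me and NASH vehicle, and passed the correction only without NASH vehicle 4 (1.17 and 1.15, adjusted p = 0.0476 by exact permutation). For Ccl8 (-3.55 to -3.07 and 0.56 to 0.98) and Ccl12 (-2.17 to -1.93) that scale reflects the prior count. Without a filter Ccl12 had a log2 fold change of 4.96 in NASH, which depends on the prior count. The cause of these shifts was not tested. Depth limits Ccl8 and Ccl12.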

Other observations

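Markers of other liver cells gave the following counts. In NASH against control, 9 of 11 T and NK cell genes, 7 of 8 dendritic cell genes, 6 of 7 stellate cell genes and 3 of 5 cholangiocyte genes were higher, with 0 lower in each list. Among all tested genes 29.6% were called higher and 30% lower. Some T and NK cell, dendritic cell and cholangiocyte genes passed the filter only through the NASH groups, so for them passing and rising are not separate facts. Of 7 Kupffer cell genes 3 were higher and 2 lower, of 6 genes of the sinusoidal endothelium 4 were lower, all 7 listed hepatocyte genes were lower (3 lower and 1 higher by limma on log2(TPM + 1), without TMM scaling), and none of 3 tested smooth muscle genes was called (median -1.98). Without control 3 and CDDO-Me 4, 2 of the 3 smooth muscle genes were higher (median 2.04) and 5 of 5 cholangiocyte genes. Of 9 neutrophil genes only 4 had enough reads to be tested, S100a8 and Cxcr2 among them through the NASH groups (0.122 and 0.0461 CPM in controls), so no count is given for NASH. Under CDDO-Me against NASH vehicle, 1 neutrophil, 4 T and NK cell, 1 dendritic cell, 3 stellate cell and 1 cholangiocyte gene were lower, 5 of the 6 endothelial genes and 1 hepatocyte gene were higher, and no Kupffer cell or smooth muscle gene was called. The shares over all tested genes were 7.24% lower and 9.39% higher. Without control 3 and CDDO-Me 4, 5 stellate cell, 3 cholangiocyte and 2 dendritic cell genes were lower.

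Ccl20, a ligand of CCR6, was the CC chemokine with the largest positive fold change under CDDO-Me among those tested. It stood at 0.167 ± 0.147 CPM in NASH vehicle and 0.717 ± 0.355 CPM in CDDO-Me livers (SD, n = 4 each). Its log2 difference was 2.05 ± 0.86 (SE, adjusted p = 0.12 by edgeR). All 4 CDDO-Me livers lay above all 4 NASH vehicle livers, which held for 11.4% of all tested genes. Ccl20 passed the filter on low counts only through the CDDO-Me livers, so its passing and this separation are not separate facts. Ccl20 was named after its values were seen.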
